A study of Mus musculus with 12 samples.

Results

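The effect of added Zmiz1 in cells that already carry a Notch1 mutant was measured in 6 of the 12 libraries of a series on the mouse T cell leukemia line 8946. The 3 libraries titled Notch1+Zmiz1 were set against the 3 libraries titled Notch1, for the 10152 genes whose mean over all 12 libraries was at least 1 FPKM (fragments of a gene scaled by its transcript length and by the mapped fragments of the library), of 23284 genes in the files. Each population received 2 retroviral vectors and was sorted for GFP and NGFR. The Notch1 libraries carry the L1601P-IRES-GFP vector and the empty NGFR vector, and the Notch1+Zmiz1 libraries carry the L1601P-IRES-GFP and Zmiz1-IRES-NGFR vectors. The other 6 libraries have an empty MigR1 vector in place of the mutant, with the empty NGFR vector (control) or with Zmiz1-IRES-NGFR (Zmiz1). The line is a single cell line, and as background it is known to grow on a human MYC transgene, which the mouse Myc values below do not measure.

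The labels contradict each other for the single-vector groups. The cell line label of the libraries titled Notch1 reads MigR1 and Zmiz1, and that of the libraries titled Zmiz1 reads L1601P and NGFR. Groups here follow the titles and the column headers of the files, and the vector genes went with them. Separate transductions per replicate are not stated anywhere, and the spread behind each p may therefore be technical.

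Notch1 is a receptor that is cut at the membrane, and its freed intracellular part enters the nucleus, joins the DNA-bound factor RBPJ and turns on target genes. In developing T cells these targets include Ptcra, Dtx1, Notch3, Il7r and Myc, and mutations that activate Notch1 are common in T cell acute lymphoblastic leukemia. Zmiz1 is a coactivator of the PIAS-like family that is known as a cofactor of Notch1, so the comparison asks what it adds where the mutant receptor is present.

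The promoters of 4 genes on which the results turn are shown from 250 bases before to 50 bases after the annotated start, 5′ to 3′ on the gene's strand, from RefSeq (GRCm38.p6). Ptcra and Il7r are Notch targets that moved in opposite directions, and Bnip3 and Slc16a3 are hypoxia-responsive genes with the 2 largest falls among endogenous genes on the log2(FPKM + 1) scale. Capitals mark TGGGAA (the core that RBPJ binds), CACGTG (an E-box of the MYC type) and ACGTG or GCGTG (the core of a hypoxia response element), each on both strands, where ACGTG also lies within CACGTG.
Ptcra (chr17:46763663-46763962, minus strand): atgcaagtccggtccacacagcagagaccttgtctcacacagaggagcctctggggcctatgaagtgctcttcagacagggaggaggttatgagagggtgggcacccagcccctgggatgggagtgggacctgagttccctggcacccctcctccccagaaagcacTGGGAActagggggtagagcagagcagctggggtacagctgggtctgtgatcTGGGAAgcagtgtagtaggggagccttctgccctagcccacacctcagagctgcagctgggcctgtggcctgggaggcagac
Il7r (chr15:9529827-9530126, minus strand): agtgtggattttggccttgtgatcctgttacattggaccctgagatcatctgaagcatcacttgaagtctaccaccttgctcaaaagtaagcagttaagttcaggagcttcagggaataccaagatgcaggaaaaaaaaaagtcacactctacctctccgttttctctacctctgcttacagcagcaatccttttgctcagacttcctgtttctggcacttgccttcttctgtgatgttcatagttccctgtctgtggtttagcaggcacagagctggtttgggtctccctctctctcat
Bnip3 (chr7:138909457-138909756, minus strand): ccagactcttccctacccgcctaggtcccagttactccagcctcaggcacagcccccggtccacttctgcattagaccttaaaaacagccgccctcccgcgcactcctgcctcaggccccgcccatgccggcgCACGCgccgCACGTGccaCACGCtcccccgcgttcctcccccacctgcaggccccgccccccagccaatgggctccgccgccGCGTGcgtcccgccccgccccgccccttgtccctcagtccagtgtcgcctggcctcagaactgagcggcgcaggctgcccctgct
Slc16a3 (chr11:120948817-120949116, plus strand): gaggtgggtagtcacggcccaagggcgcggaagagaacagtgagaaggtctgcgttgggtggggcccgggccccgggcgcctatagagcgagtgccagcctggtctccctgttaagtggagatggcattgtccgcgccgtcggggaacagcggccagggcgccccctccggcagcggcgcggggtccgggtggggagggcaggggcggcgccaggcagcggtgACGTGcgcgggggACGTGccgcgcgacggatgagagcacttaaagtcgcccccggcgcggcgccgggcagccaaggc
TGGGAA occurred 2 times in the Ptcra window, at -84 and -32 from the start, and in 1585 of 7171 tested genes with a listed promoter (22.1%). It was present in 16 of 57 promoters of genes that rose (28.1%) and in 8 of 47 of genes that fell (17.0%). Hypoxia cores occurred 5 times in the Bnip3 window and 2 times in that of Slc16a3. The 5 count the 1 CACGTG of Bnip3 on each strand (at -108 and -107). Of all windows 66.1% held 1 or more, as did 55.3% of those of genes that fell and 6 of the 9 windows of glycolysis genes that fell (66.7%). CACGTG was present in 10.9% of all windows and in 8.51% of those of genes that fell. None of the motifs occurred in the Il7r window. They were also absent from the window of the first listed start of Aldoa, the next largest endogenous fall after Slc16a3. These are matches of letters and not measured binding.

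The sum of FPKM per library lay between 549098 and 606908 across the 12 libraries, with 14233 to 14554 genes detected in each. No read counts were used, as the values are FPKM. Among genes below 0.3 FPKM, libraries numbered 2 or 3 shared a step between values (within 0.005 on the log2 scale) in 15.6% to 21.5% of genes per pair of libraries, whereas pairs with 1 library numbered 1 did so in 0.67% to 1.31%. The libraries numbered 1 of each group thus hold values on other steps, and each group has 1 of them. By these steps Notch1 libraries 2 and 3 had 1.13 to 1.23 times the depth of Notch1+Zmiz1 libraries 2 and 3. T lymphocyte markers summed to 5320 to 6040 FPKM in Notch1 and 4900 to 5130 in Notch1+Zmiz1 libraries. Means under 0.1 FPKM were found for 6 of 9 B cell markers (Pax5 and Ebf1 among them) and 6 of 7 NK markers (Ncr1, Klrk1). They were also found for all 6 early progenitor markers, 5 of 8 erythroid and megakaryocyte markers (Hba-a1, Hbb-b1) and 4 of 7 fibroblast markers (Col3a1, Pdgfra). The markers of these lists not under 0.1 FPKM were Cd79a, Vpreb1, Blnk, Klrb1c, Gata1, Klf1, Epor, Col1a1, Col1a2 and Pdgfrb. Of 10 myeloid markers 6 were under 0.1 FPKM (Cd14, Csf1r, Lyz1, Lyz2, Elane and Emr1), and Itgam, Mpo, Fcgr3 and Csf3r were not. The sum of the myeloid list, led by Itgam, was 51.4 to 58.6 FPKM in Notch1 and 59.6 to 61.9 in Notch1+Zmiz1 libraries. The other sums were low and did not overlap for erythroid (4.07 to 5 against 2.82 to 3.27 FPKM), fibroblast (1.57 to 1.87 against 1.05 to 1.23), NK (0.323 to 0.379 against 0.22 to 0.291) and progenitor markers (0.0762 to 0.125 against 0.0416 to 0.0623). Their part in the results was not tested.

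Zmiz1 (chr14:25459185-25666743, GRCm38) stood at 0.220, 0.221 and 0.194 FPKM in the Notch1 libraries and at 47.6, 49.3 and 51.0 FPKM in the Notch1+Zmiz1 libraries. The groups did not overlap, and the change was 5.37 on the log2(FPKM + 1) scale used throughout (standard error 0.0528, limma adjusted p = 3.54e-13). Without the mutant, the Zmiz1 libraries averaged 70.8 ± 3.39 FPKM (SD, n = 3 in each group throughout), above the 49.3 ± 1.66 of the Notch1+Zmiz1 libraries. Notch1 (chr2:26457903-26516663) stood at 32.0, 42.2 and 22.1 FPKM in the Notch1 libraries and at 33.5, 36.2 and 37.2 in the Notch1+Zmiz1 libraries. The second group lay within the range of the former, and Notch1 was not called (0.19, 95% interval -0.19 to 0.58, adjusted p = 0.933), with a value of -0.05 without Notch1 replicate 3. Ngfr, the gene of the sorting marker, averaged 72.9 ± 10.1 FPKM with the empty NGFR vector and 5.64 ± 0.0183 with Zmiz1-IRES-NGFR (-3.47, adjusted p = 3.45e-09). These levels hold the reads mapped to mouse genes, and how much of a vector transcript that covers is not known, as its species and length are not in the labels.

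**Figure D1:**
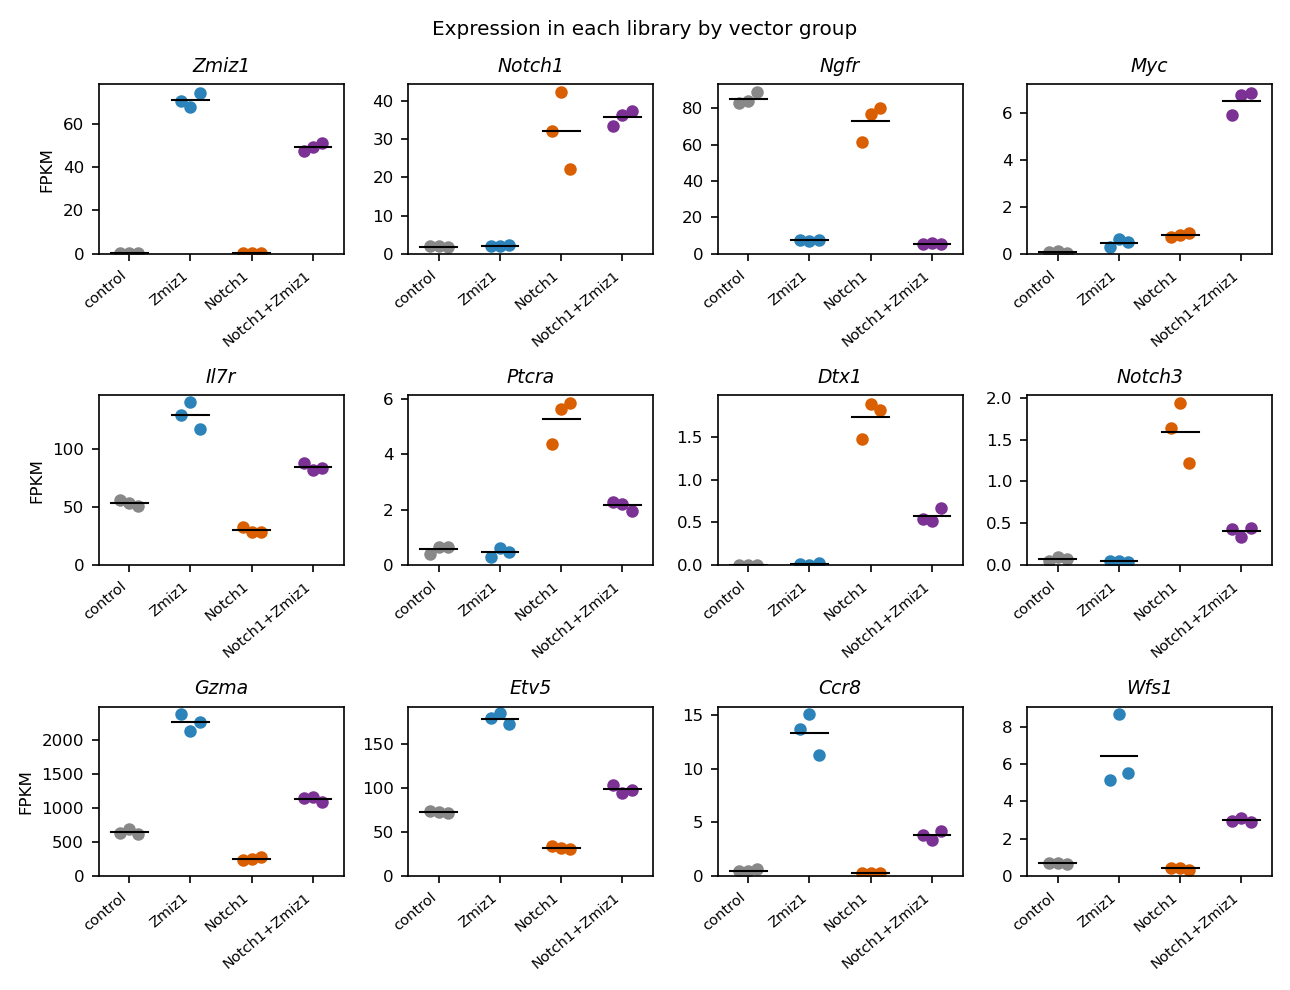
FPKM of 12 genes in each of the 12 libraries, grouped by vectors. Each point is a library (replicates 1 to 3 from left to right), each bar the mean of 3, each panel has its own linear axis from 0, and the Notch1 and Notch1+Zmiz1 points overlap for Notch1 and are separate for the other 11 genes, such as Myc (0.721 to 0.887 against 5.91 to 6.87 FPKM).

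Between Notch1+Zmiz1 and Notch1 libraries 153 of 10152 genes differed (1.51%). Of these 84 rose (0.827%) and 69 fell (0.680%) at a Benjamini-Hochberg adjusted p under 0.05 in limma. The vector genes are counted here and among the 2-fold changes below, Zmiz1 as a riser and Ngfr as a faller. The vector that carries Ngfr differed between the groups. The risers included Gzma, Myc, Ccr8, Etv5, Il7r and 6 genes of the ER list, and the fallers included Bnip3, Ptcra and 10 genes of the glycolysis list. For all 153 genes the 3 libraries of one group lay apart from the 3 of the other, as did 7.60% (higher) and 7.81% (lower) of all tested genes. The typical change was small, with a median of 0.57 among risers and -0.49 among fallers, and 20 called genes changed at least 2-fold on the log2(FPKM + 1) scale (14 up, 6 down), which leaves out genes of low level such as Ptcra, whose means differed by more than 2-fold. The median over all tested genes was -0.00032, and 914 of the 10152 had an unadjusted p under 0.05, against which such counts for the lists below are to be read. Counts of called list genes are likewise to be read against the 0.827% that rose and the 0.680% that fell. The count of 153 was 75, 93 and 80 without Notch1+Zmiz1 replicates 1, 2 and 3, and 85 without Notch1 replicate 2. It was 306 without Zmiz1 replicate 2 and 101 with a filter at a mean of 5 FPKM. Within each group the files cannot tell fewer cells that express a gene from less RNA of it per cell.

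Among Notch target genes, Myc and Il7r rose while Ptcra, Dtx1 and Notch3 fell. Of the 9 tested genes of the list 2 rose, 1 fell and 6 were not called, with a median of 0.19. Myc (chr15:61985391-61990374), the growth-promoting transcription factor, stood at 0.721, 0.811 and 0.887 FPKM in the Notch1 libraries and at 5.91, 6.76 and 6.87 in the Notch1+Zmiz1 libraries. All 3 libraries with both vectors were far above the 3 with the mutant alone, an 8.07-fold ratio of means (2.05, adjusted p = 1.50e-06). Il7r (chr15:9505788-9530176), the receptor chain for interleukin-7, stood at 32.4, 28.2 and 28.1 FPKM without and at 87.5, 81.3 and 83.4 FPKM with added Zmiz1 (1.48, adjusted p = 3.01e-06). Its groups did not overlap, and the Notch1+Zmiz1 mean of 84.1 FPKM lay above the 3 control libraries, which reached 55.5 FPKM.

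Ptcra (chr17:46755663-46763712), the invariant chain of the pre-T cell receptor, stood at 4.37, 5.65 and 5.85 FPKM in the Notch1 libraries and at 2.28, 2.22 and 1.96 in the Notch1+Zmiz1 libraries (-0.99, standard error 0.123, adjusted p = 0.00181). The Notch1+Zmiz1 libraries were all lower than the Notch1 libraries, and all higher than the control libraries, which reached 0.645 FPKM. Dtx1, a ubiquitin ligase of the Notch pathway, and Notch3, a receptor of the same family, lay under the filter and were tested in a fit without it, in which 193 of 16835 genes were called (1.15%). Dtx1 stood at 1.48, 1.90 and 1.83 FPKM in the Notch1 libraries and at 0.545, 0.515 and 0.663 with added Zmiz1 (-0.80, adjusted p = 5.71e-05, and 0.0636 at a pseudocount of 0.01). Notch3 stood at 1.63, 1.94 and 1.22 FPKM without and at 0.428, 0.330 and 0.443 with added Zmiz1 (-0.88, adjusted p = 5.82e-04, and 0.0548 with only these 2 groups in the fit). For both genes every Notch1+Zmiz1 library was below every Notch1 library.

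Other targets were not called. Trib2, a pseudokinase, averaged 24.7 ± 1.71 FPKM in Notch1 and 19.1 ± 0.529 in Notch1+Zmiz1 libraries (-0.35, adjusted p = 0.186), and its adjusted p was 0.0398 without Zmiz1 replicate 2. Lef1, a partner of beta-catenin, averaged 55.5 ± 4.16 and 63.8 ± 2.38 FPKM (0.20, adjusted p = 0.347). Il2ra (0.519 and 0.606 FPKM) and the Notch feedback regulator Nrarp (0.216 and 0.256 FPKM) lay near 0 with overlapping libraries, and Hes1 was listed at 0 in all 12 libraries. None of the 25 tested genes of the Notch pathway machinery was called by limma, and 0 of them had an unadjusted p under 0.05. Of the 20 tested genes of the PIAS family and SUMO machinery, Zmiz1 itself was the only one called, 2 had an unadjusted p under 0.05, and the median was 0.04.

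Gzma (chr13:113093825-113100981), the granule protease granzyme A, had the largest rise among endogenous genes on the log2(FPKM + 1) scale, though not in the ratio of means, which was higher for Ccr8, Myc and Wfs1. It stood at 227, 246 and 279 FPKM in the Notch1 libraries and at 1144, 1153 and 1085 in the Notch1+Zmiz1 libraries, a 4.50-fold ratio (2.17, adjusted p = 9.72e-08). Sytl3, a Rab27-binding protein of secretory granules, rose from 1.34 ± 0.0970 to 4.28 ± 0.324 FPKM (1.17, adjusted p = 4.78e-05), and its relative Sytl2 by 0.76 (adjusted p = 0.0165). These 3 were the called genes among 13 of the cytotoxic granule list, whose median was -0.04, and 0.827% of all genes rose. Sytl2 lost its call without Notch1 replicate 1 or 3 or any 1 Notch1+Zmiz1 library (0.0508 to 0.0905).

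Of 11 tested chemokine and sphingosine phosphate receptors and related receptors, 3 rose and 1 fell, against 0.827% and 0.680% of all genes. Ccr8 (chr9:120092114-120094906), a chemokine receptor, stood at 0.253, 0.227 and 0.249 FPKM in the Notch1 libraries and at 3.80, 3.33 and 4.21 with added Zmiz1 (1.94, adjusted p = 4.10e-06). It was 15.6-fold higher, with no overlap between groups, yet below the Zmiz1 libraries at 13.3 ± 1.92 FPKM. Ccr9, a receptor that guides thymocytes and gut T cells, rose from 1.72 ± 0.0431 to 3.23 ± 0.203 FPKM (0.64, adjusted p = 0.0214), and Gpr174, a lysophospholipid receptor, rose by 0.94 (adjusted p = 0.0267). The adhesion receptor Gpr56 was lower, at 19.7 ± 0.732 against 10.4 ± 0.506 FPKM (-0.86, adjusted p = 1.24e-05). Ccr9 lost its call without any 1 library of the groups compared (0.0744 to 0.103), and Gpr174 without Notch1 replicate 2 or 3 or any 1 Notch1+Zmiz1 library (0.0672 to 0.125).

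Of 32 interleukin receptor, SOCS and Stat5 genes 2 rose and 2 fell, with a median of 0.01. Beside Il7r, the riser was Il12rb2, a chain of the interleukin-12 receptor (40.7 ± 0.578 to 52.0 ± 2.40 FPKM, 0.34, adjusted p = 0.00878). Ifngr1, the ligand-binding chain of the interferon gamma receptor, stood at 349.8, 347 and 381 FPKM in the Notch1 libraries and at 271, 276 and 272 FPKM with added Zmiz1 (-0.39, adjusted p = 0.00759). Every Notch1+Zmiz1 library was lower, as for Bcl6, a transcriptional repressor, which fell by 0.27 (adjusted p = 0.0216). Il17rb, the receptor for interleukin-25, stood outside the list and rose from 28.0 ± 0.841 to 64.7 ± 4.24 FPKM (1.18, adjusted p = 6.92e-05). Il12rb2 lost its call without Notch1+Zmiz1 replicate 3 (0.0518), and Bcl6 without any 1 library of the groups compared (0.0548 to 0.123).

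Among signaling genes Etv5 (chr16:22381309-22439719), an ETS transcription factor induced by ERK, stood at 33.6, 31.6 and 30.2 FPKM in the Notch1 libraries and at 103, 94.5 and 97.8 with added Zmiz1 (1.60, adjusted p = 7.98e-08). It was 3.10-fold higher and the 1 called gene among 21 of the ERK feedback and ETS list, whose median was 0.03. Prkaa2, a catalytic subunit of the energy sensor AMPK, rose from 1.63 ± 0.334 to 5.37 ± 0.593 FPKM (1.28, adjusted p = 8.68e-04). In the same list of 33 PI3K, AMPK and mTOR genes, whose median was 0.02, Prr5, a subunit of mTORC2, fell by 0.51 (adjusted p = 0.00619). Nfkbie, an inhibitor of NF-kB, rose from a mean of 29.9 to 57.4 FPKM (0.92, adjusted p = 0.00862), the 1 called gene of 14 in its list. Nfkbie lost its call without Notch1+Zmiz1 replicate 3 (0.0518).

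The other large risers outside the lists were St3gal2, a sialyltransferase (1.22), the membrane protein Itm2a (1.21), Stc1, a secreted glycoprotein (1.26), the actin crosslinker Actn2 (1.06) and Antxr1, a receptor for anthrax toxin (0.98). Stc1 lost its call without Notch1 replicate 2 or 3 or Notch1+Zmiz1 replicate 1 or 3 (0.0548 to 0.0657), and the other 4 were called in each of the 12 fits that left out 1 library. Outside the lists the large fallers were Tmem45a (11.4 ± 1.26 to 4.31 ± 0.219 FPKM, -1.22), the AMP deaminase Ampd1 (-0.94), the vesicle protein Nsg2 (-0.77) and Vwa1, a matrix protein (-0.71). These 4 were also called in each of those 12 fits.

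Enzymes of glycolysis fell together in number. Of 19 tested genes of the glycolysis list 10 fell and 0 rose in limma (15 of the 19 at an unadjusted p under 0.05, all 15 lower), against 0.680% of all genes that fell, and the median was -0.31. Aldoa, the aldolase that splits fructose bisphosphate, stood at 177, 194 and 209.8 FPKM in the Notch1 libraries and at 78.7, 83.5 and 74.4 with added Zmiz1 (-1.28, adjusted p = 1.59e-05). Tpi1 (chr6:124810586-124814296), which interconverts the triose phosphates, stood at 99.4, 116 and 123 FPKM and at 44.5, 51.2 and 47.4 in the same order (-1.22, adjusted p = 2.46e-04). Pgk1 (chrX:106187100-106203699), which makes ATP from bisphosphoglycerate, stood at 374, 368 and 379.6 FPKM and at 193, 203 and 185 (-0.95, adjusted p = 7.70e-06). In these 3 genes the Notch1+Zmiz1 libraries were all below the Notch1 libraries. The control libraries averaged 74.6 ± 1.98, 39.4 ± 1.77 and 173 ± 6.14 FPKM in the same order of genes. For Tpi1 and Pgk1 every Notch1+Zmiz1 library lay above the control mean, and the difference from control was not tested.

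Slc16a3, the lactate exporter MCT4, stood at 9.12, 9.75 and 9.73 FPKM in the Notch1 libraries and at 2.83, 3.24 and 3.28 with added Zmiz1 (-1.36, adjusted p = 8.56e-04). Its groups were far apart, at 0.327 times the mean. Pkm2, the pyruvate kinase, fell by 0.79 (299 ± 25.8 to 172 ± 12.3 FPKM), and the phosphofructokinases Pfkp and Pfkl by 0.63 and 0.57. Eno1 (enolase), Gpi1 (glucose phosphate isomerase) and Ldha (lactate dehydrogenase) fell by 0.54, 0.47 and 0.31. Eno1 shares near-identical sequence with the retrocopy Gm5506, which fell by 0.61, so the level of each is uncertain. The glucose transporters Slc2a1 (0.02, adjusted p = 0.998) and Slc2a3 (-0.02, adjusted p = 0.997) were not called, nor were Pgam1 (-0.29, adjusted p = 0.0526) and Gapdh (-0.23, adjusted p = 0.174). The count of 10 was 8 to 12 in the fits without 1 library. Pfkp lost its call without any 1 library of the groups compared (0.0718 to 0.115), and Ldha without Notch1 replicate 2 or 3 or any 1 Notch1+Zmiz1 library (0.0502 to 0.114).

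Genes of the hypoxia-inducible factor list that do not act in glycolysis moved less uniformly. Of 26 tested 4 fell and 1 rose in limma (11 at an unadjusted p under 0.05), against 0.680% and 0.827% of all genes. The median was -0.12. Bnip3 (chr7:138890836-138909519), a mitochondrial protein of mitophagy whose promoter is shown above, stood at 22.7, 19.3 and 20.1 FPKM in the Notch1 libraries and at 6.65, 5.62 and 6.61 with added Zmiz1 (-1.57, adjusted p = 2.92e-04). Every Notch1+Zmiz1 library was below every Notch1 library, and also below every control library (7.15 to 7.85 FPKM). Mif, a secreted cytokine, fell by 0.69 (147 ± 26.3 to 89.8 ± 3.67 FPKM), the prolyl hydroxylase Egln1 by 0.43 and the collagen prolyl hydroxylase P4ha1 by 0.33. Egln3, another of the oxygen-sensing prolyl hydroxylases, rose from 29.5 ± 0.365 to 44.5 ± 1.84 FPKM (0.58, adjusted p = 0.00305). Hif1a (0.13, adjusted p = 0.890) and Vegfa (-0.0010, adjusted p = 1.00) were not called. P4ha1 lost its call without Notch1 replicate 1 or 2 or Notch1+Zmiz1 replicate 1 or 3 (0.0853 to 0.102), and Mif was at 0.0872 when the control and Zmiz1 libraries were left out of the model.

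**Figure D2:**
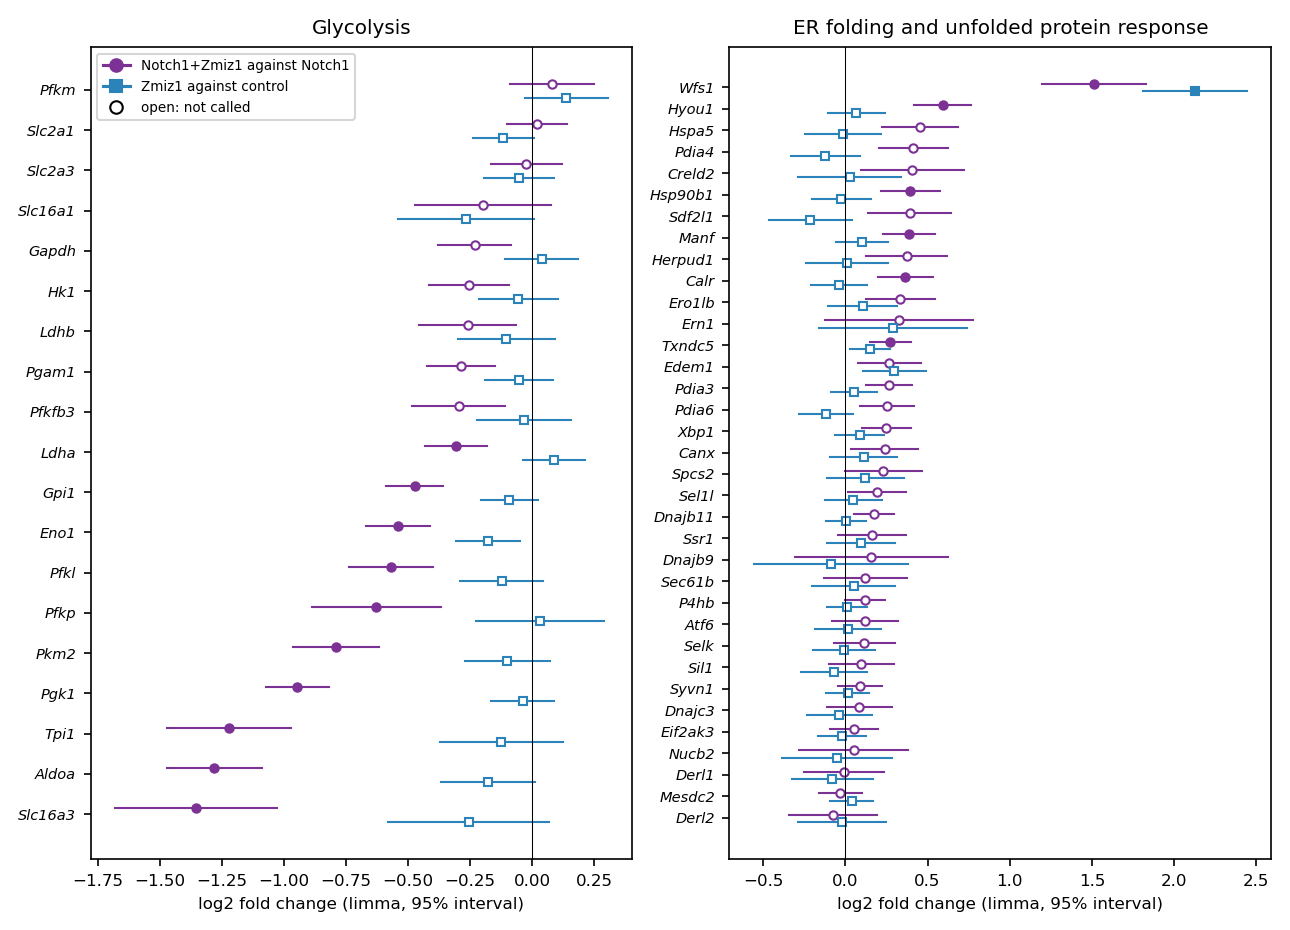
Log2 fold change of every tested gene of the glycolysis list (left) and of the ER folding and unfolded protein response list (right), with 95% intervals from limma. Purple circles give Notch1+Zmiz1 against Notch1 and blue squares give Zmiz1 against control, with filled symbols for called genes, and 10 of 19 purple circles on the left are filled below 0 and 6 of 35 on the right are filled above 0.

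Genes of protein folding in the endoplasmic reticulum (ER) lay on the higher side. Of 35 tested 6 rose and 0 fell in limma (19 at an unadjusted p under 0.05), against 0.827% and 0.680% of all genes. A positive fold change was found for 32 (49.6% of all genes had one), and the median was 0.24. Wfs1, an ER membrane protein, stood at 0.441, 0.418 and 0.321 FPKM in the Notch1 libraries and at 2.92, 3.08 and 2.91 with added Zmiz1 (1.51, adjusted p = 2.92e-04). It was 7.55-fold higher. Hyou1, an ER chaperone of the HSP70 family, stood at 50.7, 54.6 and 46.5 FPKM and at 70.8, 79.4 and 80.2 in the same order (0.59, adjusted p = 0.00305). The chaperone Hsp90b1 rose by 0.40, the secreted ER stress factor Manf by 0.39, the lectin chaperone Calr by 0.37 and the disulfide isomerase Txndc5 by 0.27. Hspa5, the main ER chaperone, averaged 291 ± 7.38 and 398 ± 8.01 FPKM and was not called (0.45, adjusted p = 0.0696), nor was Pdia4 (0.41, adjusted p = 0.0670). Both were called without Zmiz1 replicate 2 (3.24e-04 and 0.00215). The count of 6 was 2 to 5 in the fits without 1 of the other 11 libraries and 13 without Zmiz1 replicate 2. Hsp90b1, Calr and Txndc5 lost the call without any 1 control, Notch1 or Notch1+Zmiz1 library, and Calr without Zmiz1 replicate 1 and Txndc5 without Zmiz1 replicate 1 or 3 too (0.0539 to 0.199). Manf lost it without any 1 library of the groups compared other than Notch1 replicate 3 (0.0744 to 0.11), and Wfs1 and Hyou1 kept theirs in all 12 fits.

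Genes of the amino acid stress response and of serine and one-carbon metabolism lay on the same side. Of 28 tested 3 rose and 0 fell in limma (11 at an unadjusted p under 0.05), against 0.827% and 0.680% of all genes. Of the 28, 23 were positive, and the median was 0.15. Shmt2, the mitochondrial serine hydroxymethyltransferase, stood at 40.9, 44.5 and 44.1 FPKM in the Notch1 libraries and at 58.6, 62.8 and 61.4 with added Zmiz1 (0.49, adjusted p = 9.49e-04), with no overlap. The amino acid transporters Slc1a4 and Slc7a5 rose by 0.51 and 0.39. Asns, the asparagine synthetase, averaged 10.3 ± 0.783 and 14.0 ± 0.647 FPKM and was not called (0.42, adjusted p = 0.0629), and neither was Atf4 (0.15, adjusted p = 0.558). Of 23 aminoacyl-tRNA synthetases 21 were positive, 1 rose (Nars, 0.23, adjusted p = 0.0319) and 0 fell (8 at an unadjusted p under 0.05), with a median of 0.14. Slc1a4 lost its call without any 1 library of the groups compared (0.0598 to 0.114), Slc7a5 without Notch1 replicate 2 or 3 or any 1 Notch1+Zmiz1 library (0.0569 to 0.0919), and Nars without any 1 control or Notch1+Zmiz1 library or Notch1 replicate 1 or 2 (0.0552 to 0.153).

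Beside the rise of Myc few of its known targets were called, though most had a positive fold change. Of 44 tested MYC target genes 39 were positive, with a median of 0.10, but 1 rose (Srm, spermidine synthase), 1 fell (Ldha, which is also a glycolysis gene) and 42 were not called. An unadjusted p under 0.05 was found in limma for 10 of the 44. The groups did not overlap for 16 higher and 1 lower genes, against 7.60% and 7.81% of all tested genes. Srm averaged 3.85 ± 0.760 and 6.43 ± 0.499 FPKM (0.62, adjusted p = 0.0447), and it was called in 3 of the 12 fits without 1 library (0.0531 to 0.193 in the other 9, which left out any 1 control or Notch1+Zmiz1 library, Notch1 replicate 1 or 2 or Zmiz1 replicate 3). Cad, which starts pyrimidine synthesis, averaged 8.95 ± 1.12 and 12.1 ± 0.477 FPKM (0.40, adjusted p = 0.0505). Of 51 ribosome biogenesis genes 43 were positive, limma called 0, and 7 had an unadjusted p under 0.05, with a median of 0.09. Of 32 polyamine and nucleotide synthesis genes Srm was the 1 called, and the median was 0.01. Of 10 genes of the Myc network Myc was the 1 called, and the partners and antagonists Mxd4 (0.27), Mxd3 (-0.16) and Mxd1 (-0.10) were not (adjusted p = 0.586 to 0.898).

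Of 36 tested T cell identity genes 1 rose (Ccr9), 2 fell (Ptcra and Cd6) and 33 were not called, with a median of -0.07. An unadjusted p under 0.05 was found for 15 of the 36. The groups did not overlap for 8 higher and 9 lower genes, against 7.60% and 7.81% of all tested genes. Cd6, a T cell surface receptor, stood at 24.8, 27.9 and 26.4 FPKM in the Notch1 libraries and at 13.9, 15.5 and 16.4 with added Zmiz1 (-0.75, adjusted p = 0.00117), with no overlap. It was also the 1 called gene of 30 in the T cell receptor signaling list, where the median was -0.02. The T cell kinase Lck averaged 882 ± 41.7 and 722 ± 36.6 FPKM (-0.29, adjusted p = 0.0864, and 0.0316 without Zmiz1 replicate 2), and Cd5 averaged 20.4 ± 1.57 and 16.1 ± 1.41 FPKM (-0.33, adjusted p = 0.159). Gata3, a transcription factor of T cell fate, averaged 62.8 ± 3.42 and 87.6 ± 6.22 FPKM (0.47, adjusted p = 0.125, and 0.00886 without Zmiz1 replicate 2). All 9 tested T lymphocyte markers had a negative fold change and 0 were called, and the part of this lower level in the other results was not tested.

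Of 33 cholesterol and fatty acid synthesis genes 26 were negative and 2 fell, Sqle (squalene epoxidase, -0.32, adjusted p = 0.0323) and Fdft1 (squalene synthase, -0.27, adjusted p = 0.0409), with a median of -0.15. An unadjusted p under 0.05 was found in limma for 13 of the 33. The groups did not overlap for 11 lower and 3 higher genes, against 7.81% and 7.60% of all tested genes. The count of 2 was 0 without any 1 library of the groups compared or control replicate 2 or 3, and 0 with median ratio scaling. Of 17 interferon response genes 14 were negative and 1 fell, Slfn2 (23.8 ± 1.39 to 16.3 ± 1.48 FPKM, -0.52, adjusted p = 0.0427), and the median was -0.11. Slfn2 was called in 2 of the 12 fits without 1 library, those without Zmiz1 replicate 2 or 3. All 5 tested MHC class II genes were negative with a median of -0.33, limma called 0 of them, with 3 at an unadjusted p under 0.05. Of 28 MHC class I genes 22 were negative and 0 were called (6 at an unadjusted p under 0.05).

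The remaining lists held no called gene in limma. Cell division genes were among them, with medians of -0.01 over 42 genes of DNA replication and G1/S (0 at an unadjusted p under 0.05), 0.04 over 32 genes of mitosis (1) and 0.02 over 12 D cyclins and CDK inhibitors (1). Medians were 0.08 over 23 heat shock proteins outside the ER (6 at an unadjusted p under 0.05), 0.08 over 16 histones (2), 0.06 over 22 p53 response genes (2), 0.07 over 18 TGF-beta pathway genes (2) and -0.05 over 10 Bcl2 family genes (2). They were -0.04 over 24 integrins and adhesion genes (1), 0.11 over 8 immediate early genes (1), 0.06 over 6 E proteins and Id inhibitors (2) and 0.11 over 7 leukemia oncogene factors (1).

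**Figure D3:**
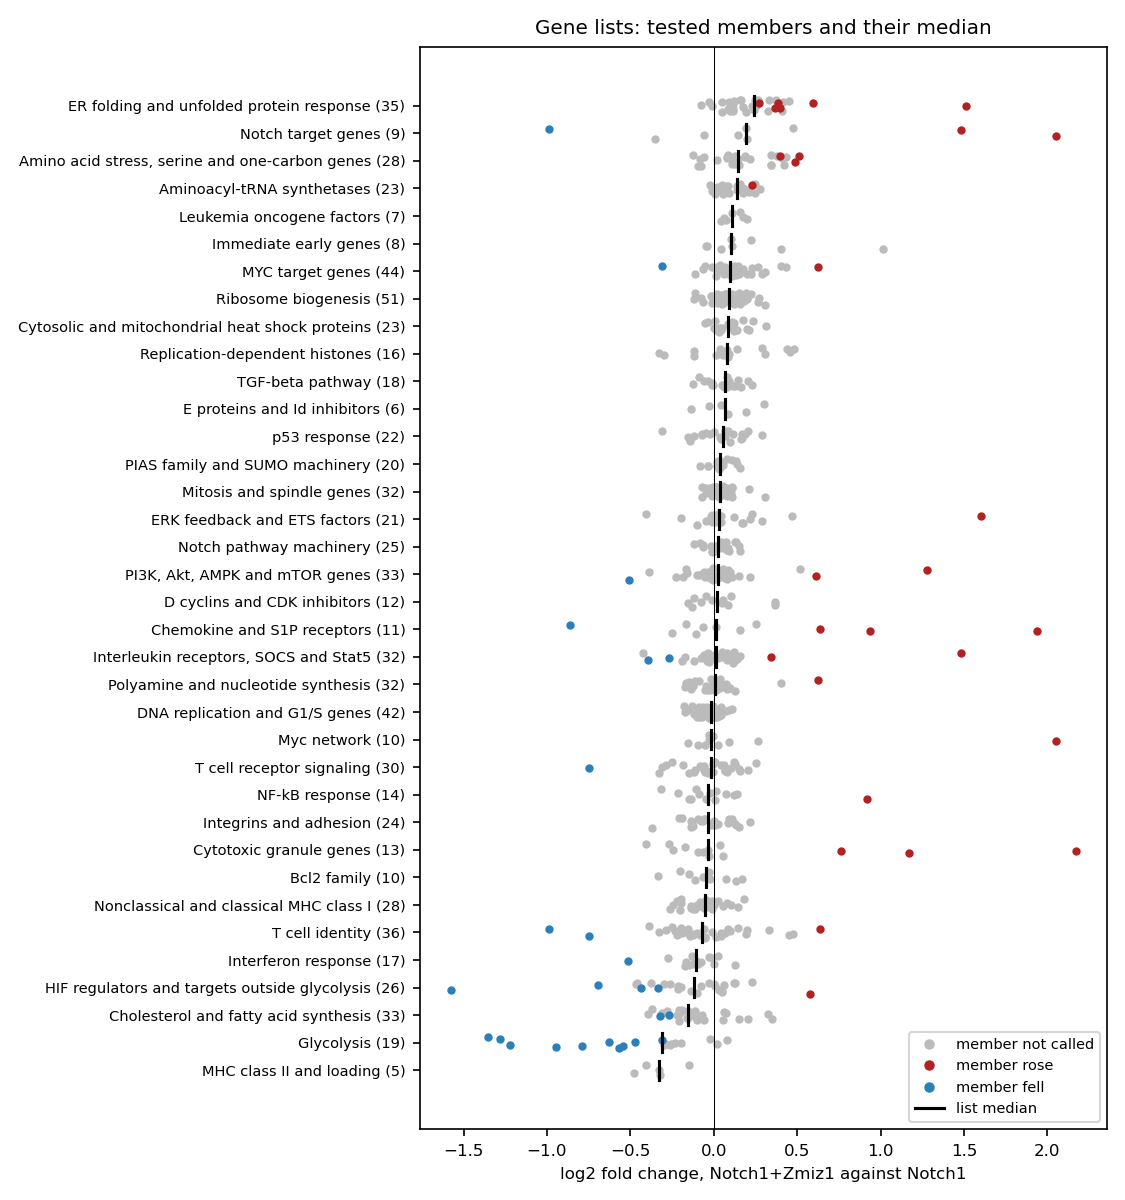
Log2 fold change, Notch1+Zmiz1 against Notch1, of every tested gene in each list, with the number of tested genes in brackets and lists ordered by their median (black bar). Red points rose, blue points fell and grey points were not called, Zmiz1 (5.37, PIAS list) lies outside the axis, and the glycolysis list has 10 blue points and a median of -0.31 while the ER list has 6 red points and a median of 0.24.

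The same addition of Zmiz1 in cells without the mutant (Zmiz1 against control, which shares no library with the comparison above) called 214 genes (2.11%), of which 109 rose (1.07%) and 105 fell (1.03%). Of the 84 genes that rose beside the mutant 59 also rose without it (70.2% of the 84 and 54.1% of the 109), Gzma, Etv5, Il7r, Ccr8, Wfs1 and Prkaa2 among them. Of the 69 that fell beside the mutant 32 also fell without it (46.4% of the 69 and 30.5% of the 105), such as Gpr56, Nsg2 and Tmem45a. The vector genes were counted too, Zmiz1 among the 59 and Ngfr among the 32. No gene was called in opposite directions. Both sets of calls took each gene's variance from the same model of all 12 libraries, so these overlaps are not those of separate tests. With only its own 2 groups fitted, Zmiz1 against control called 49 genes, and the overlap between separate fits was not tested. Over the 151 called genes other than Zmiz1 and Ngfr, Pearson's r between the fold changes was 0.869, and over all tested genes it was 0.114. The points are genes of the same libraries and not independent, so these values are descriptions. The 37 fallers that were not called without the mutant had a median of -0.54 beside it and -0.17 without it, and the 25 such risers had 0.40 and 0.18. Both sets were chosen by these same calls, which by itself sets the medians apart, so the gap is no measure of a difference in effect.

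The glycolysis list, with 10 fallers beside the mutant, had 0 called genes in Zmiz1 against control and a median of -0.09, and the ER list had 1 (Wfs1) and a median of 0.01. Aldoa averaged 74.6 ± 1.98 FPKM in control and 66.1 ± 6.81 in Zmiz1 libraries (-0.18, adjusted p = 0.438), and Pgk1 173 ± 6.14 and 168 ± 9.67 (-0.04, adjusted p = 0.841). The difference between the effects with and without the mutant was itself tested for each gene as an interaction, and 7 genes were called (0.0690%, 332 at an unadjusted p under 0.05). Aldoa (-1.10, adjusted p = 0.00633), Tpi1 (-1.10, adjusted p = 0.0464) and Pgk1 (-0.91, adjusted p = 0.00190) fell more beside the mutant, and the other 7 glycolysis genes that fell were not called in this test (adjusted p = 0.0917 for Pkm2, 0.305 for Slc16a3). Bnip3 (-1.08, adjusted p = 0.305), Ptcra (-0.89, adjusted p = 0.305) and Hyou1 (0.53, adjusted p = 0.366) were not called either. In the fit without the filter the terms of Dtx1 (-0.81, adjusted p = 0.00262) and Notch3 (-0.85, adjusted p = 0.0310) were called. Both genes were under 0.1 FPKM in control and Zmiz1 libraries, where a like fall could not appear on this scale. These 2 terms therefore largely repeat the falls beside the mutant and do not show a difference in effect. They were not tried at lower pseudocounts. Tpi1 lost its call without any 1 library other than Zmiz1 replicate 2 and Notch1 replicate 1 (0.0858 to 0.207), at pseudocounts of 0.1 and 0.01 (0.0622 and 0.0703), with the filter at 5 FPKM (0.0613) and with quantile normalization (0.0516).

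Myc gave the largest term (1.61, adjusted p = 0.00190), and its value depends on the scale. In the control libraries Myc stood at 0.0828, 0.106 and 0.0274 FPKM and in the Zmiz1 libraries at 0.285, 0.610 and 0.499 (0.44, adjusted p = 0.0511). The ratio of means was 6.46 without the mutant and 8.07 beside it. At a pseudocount of 0.1 the term was 1.17 (adjusted p = 1.00) and at 0.01 it was 0.38, so the term was called with a pseudocount of 1 and at neither lower one. Ccr8 had a term of -1.33 (adjusted p = 0.00735) that likewise missed the threshold at pseudocounts of 0.1 (-1.05, adjusted p = 0.535) and 0.01. Plac8, a small cysteine-rich protein, averaged 24.6 ± 1.53 FPKM in control and 14.98 ± 0.231 in Zmiz1 libraries (-0.68, adjusted p = 3.31e-04), but 8.86 ± 0.622 in Notch1 and 11.1 ± 0.555 in Notch1+Zmiz1 libraries (0.30, adjusted p = 0.0536). Its term was 0.98 (adjusted p = 0.00194), with effects of opposite sign.

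**Figure D4:**
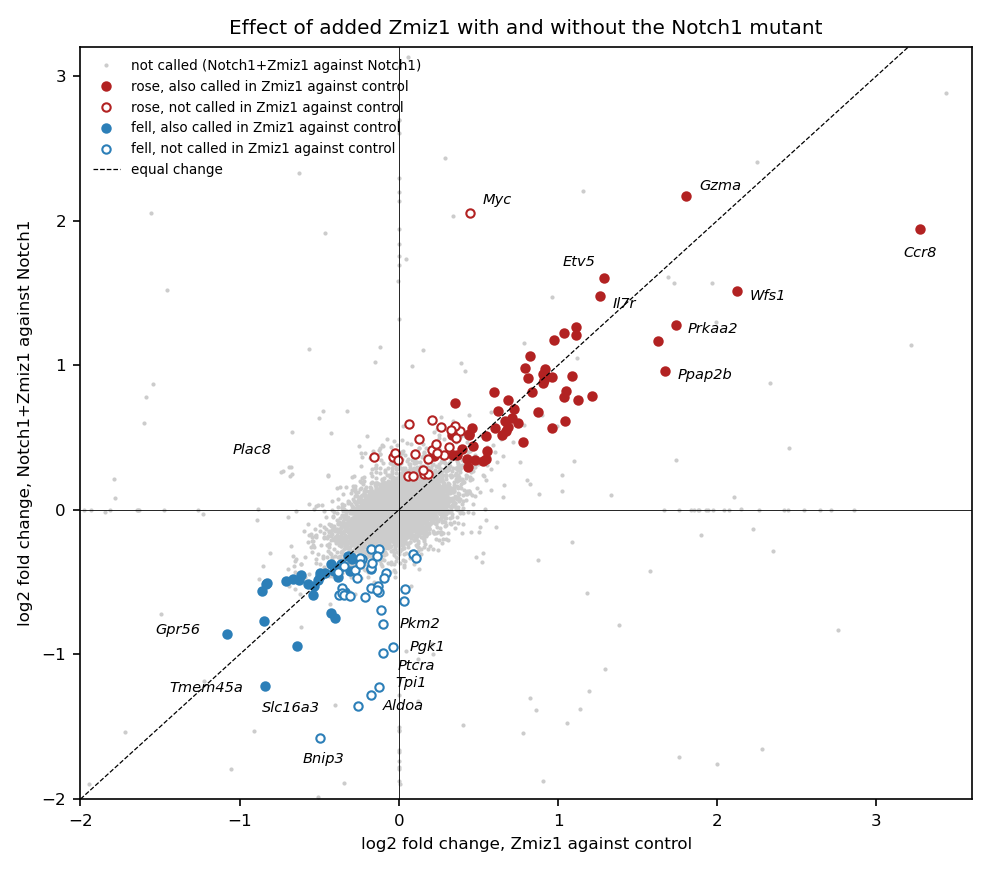
Log2 fold change of every tested gene for added Zmiz1 beside the Notch1 mutant (vertical axis) and without it (horizontal axis). Points are genes, colored by their call, filled where also called without the mutant, and Zmiz1 (5.93, 5.37) and Ngfr (-3.35, -3.47) lie outside the axes, as do some uncalled genes. Gzma, Etv5 and Il7r lie near the line of equal change, and Aldoa, Tpi1 and Pgk1 lie near 0 on the horizontal axis at -1.28, -1.22 and -0.95 on the vertical one.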

How the data were processed

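Expression was measured by RNA sequencing of poly(A)-selected RNA (TruSeq mRNA v2, per the labels' protocols) in 12 libraries, 3 in each of 4 vector groups taken from the sample titles. The authors deposited FPKM values, 1 per gene symbol and library. The submitters' processing notes name FastQC 0.10.0, TopHat2 2.0.9, Bowtie2, Cufflinks, Cuffdiff 2.1.1 and mm10; their order, settings and annotation are not given in the sources used here. The deposited FPKM hold no counts, so no counting interval is given.

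The deposited values were not rescaled and were taken as log2(FPKM + 1), which understates the change of genes near or below 1 FPKM, for the 10152 genes averaging 1 FPKM or more. One limma model (3.58.1, R 4.3.3) held the 4 group means of all 12 libraries, with variances moderated along an intensity trend. From it came the comparison, Zmiz1 against control, and their interaction, as two-sided tests whose p-values were adjusted by Benjamini-Hochberg across the tested genes. Genes under 0.05 are named as called, risen or fallen. With 3 libraries on each side the smallest exact permutation p is 0.1, and the calls therefore rest on variance shared across genes.

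Named genes were the vector genes, the 15 largest called rises and 15 largest called falls without overlap (leaving out predicted genes), from each list the 4 or fewer members that moved most, the called interaction terms and 10 fixed Notch and T cell genes; called list members outside this rule, and uncalled members given for contrast such as Hif1a, Vegfa, Atf4, Slc2a1, Slc2a3, Gapdh and Pgam1, were added after their values were seen. One called list member is not reported here. The members and lists were chosen with earlier results of these data known. Positions are from GENCODE M21 (GRCm38, equal to mm10) by symbol (90.1% matched), promoters from RefSeq (7171 of 10152 genes matched by symbol). Reads were not counted by strand, so overlapping genes cannot be told apart.

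Alternatives were other pseudocounts, filters, scalings, fits and each library left out; a group left with 2 libraries took its spread from the shared model. On simulated data of this size (10152 genes, 200 changed), 76.9% of 1.5-fold and 95.8% of 2-fold changes were recovered in the comparison (46.5% and 85% in the interaction), and 4.36% of calls were false (4.54%). The simulated noise was normal and independent between genes and libraries, with no library set apart, so these shares need not hold for the real libraries. Figures were drawn with matplotlib 3.10.9.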

Additional observations from a re-analysis of the deposited data

Results flagged for a closer look

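For 7 genes the effect of added Zmiz1 differed between cells with and without the Notch1 mutant in limma's interaction test (effect with the mutant minus effect without, on the log2(FPKM + 1) scale). The terms were 1.61 for Myc, -1.33 for Ccr8, -1.10 for Aldoa, -1.10 for Tpi1, 0.976 for Plac8, -0.908 for Pgk1 and -0.557 for Zmiz1. Those of Aldoa, Pgk1 and Plac8 were called at each pseudocount, filter and scaling tried and in all 12 fits without 1 library, and were lost with replicates 2 and 3 only (adjusted p = 0.366, 0.194 and 0.419 in limma). Those of Myc and Ccr8 were called in all 12 such fits but not at a pseudocount of 0.1 or 0.01. The term of Ccr8 was also lost with replicates 2 and 3 only (-1.28, adjusted p = 0.888 in limma). Zmiz1, the vector gene, rose by 5.93 on this scale without the mutant and by 5.37 beside it, and its term was lost without any 1 library other than Zmiz1 replicate 2 and Notch1 replicate 3 (adjusted p = 0.0681 to 0.131), at pseudocounts of 0.1 and 0.01, with the filter at 5 FPKM, with robust variances and with short noncoding genes left out (0.0604 to 0.105). Tpi1 was called in 2 of the 12 fits without 1 library and lost at both lower pseudocounts, with the filter at 5 FPKM and with quantile normalization (0.0516 to 0.0703). Both were also lost with replicates 2 and 3 only. Groups of 3 libraries were too small for the check for a library far from the others of its group.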

How the results depend on the processing

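The count of 153 called genes was 101 with genes under a mean of 5 FPKM left out, 44 with replicates 2 and 3 only (chosen after seeing the data), 392 with groups by the cell line label, 20 with a 2-fold minimum, and 75 to 306 without 1 library. Called genes numbered 107 when the control and Zmiz1 libraries were left out of the model, 88 of them among the 153. In that model Ldha, Srm, Il12rb2, Slfn2, Nars, Bcl6, Calr and Fdft1 lost their calls, as did Hsp90b1, Manf, P4ha1, Slc7a5, Sqle, Txndc5 and Mif. Their adjusted p there was 0.0503 to 0.174 in limma, while Hspa5 and Pdia4 were called (0.0211 and 0.0458). The 7 interaction terms were 3 at a pseudocount of 0.1, 3 at 0.01 (chosen after seeing the data), 18 with no filter, 3 with the filter at 5 FPKM, 4 with replicates 2 and 3 only and 5 to 8 without 1 library. The 214 genes of Zmiz1 against control were 121 with the filter at 5 FPKM, 49 with only the 2 groups of that comparison fitted, 30 with replicates 2 and 3 only and 74 to 241 without 1 library (106, 81 and 74 without control replicates 1, 2 and 3). With the replicate number as a block the counts were 260 and 365. Same-numbered libraries of the groups compared did not deviate together (correlations 0.157, 0.0225 and -0.176), so the numbers were not taken to pair libraries. With the block Trib2 was called (adjusted p = 0.0411) and the interaction term of Tpi1 was not (0.076). All 153 called genes kept their sign under every alternative that tested them by title groups (115 of them at 5 FPKM). Of 62 called named genes 40 stayed called in all 12 fits without 1 library. Without 1 library at a time the fold change ran from -0.0462 (without Notch1 replicate 3) to 0.407 for Notch1, from -0.00846 (without Notch1 replicate 3) to 0.249 for Ranbp2, from -0.383 to 0.0188 (without Notch1+Zmiz1 replicate 3) for Oaz1, from -0.0104 (without Notch1 replicate 1) to 0.0988 for Nrarp, and in Zmiz1 against control from -0.0798 to 0.00273 (without Zmiz1 replicate 2) for Pgk1; the named library turned the sign, and none of these 5 was called. Nrarp was at -0.0443 with replicates 2 and 3 only, and Zmiz1 at -0.513 with groups by the cell line label. The causes were not tested. Scaling moved the median of all genes by at most 0.0076. Depth is known only in relative terms, so the precision of values near 0 FPKM is unknown.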

Other observations

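The called genes given here stand outside the lists and were picked with their values in view. Pdcd1, the checkpoint receptor PD-1, rose from 0.723 ± 0.118 to 2.27 ± 0.288 FPKM beside the mutant (SD, n = 3 each, log2 fold change 0.92, limma adjusted p = 0.00691) and was also called without it (1.09). Gadd45g, a stress-induced gene, rose from 37.3 ± 3.79 to 66.4 ± 3.11 FPKM (0.82), and Cpt1a, which admits fatty acids to mitochondria, rose by 0.38. Irf4, a lymphocyte transcription factor, fell from 3.34 ± 0.165 to 2.01 ± 0.0907 FPKM (-0.53, adjusted p = 0.0488). Pnp (purine nucleoside phosphorylase) rose by 0.54 and Ada (adenosine deaminase) fell by 0.32, both also called the same way without the mutant. Pgm2 (a phosphoglucomutase) and Galk1 (galactokinase) fell by 0.37 and 0.41 beside the mutant and were not called without it (adjusted p = 0.311 and 0.419).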
